A study of Mus musculus with 8 samples.

Results

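Kinesins are motor proteins that walk along microtubules or pull subunits from their ends, using the energy of ATP. Some carry vesicles, organelles and protein complexes, some build and maintain cilia and flagella, and others cross-link, slide and shorten microtubules in the spindle and at the midbody during cell division. Germ cells pass from the spindles of meiosis to the flagellum and the manchette, the microtubule skirt that shapes the sperm head, so they draw on all these classes. The genes described here are all those whose symbol starts with Kif and a digit in any of the 10 deposited tables. There were 31 of them among 12587 genes. Of these, 28 had rows in both stages, and Kif14, Kif20a and Kif5a had rows in the spermatocyte tables only. The name is not a perfect guide: Kif1bp encodes a protein that binds kinesins and is no motor itself. Each gene was placed in 1 role: 11 as cargo motors, 10 in the spindle and in cytokinesis. Another 9 were placed in cilia, the axoneme (the microtubule core of cilia and flagella) or at microtubule ends. Roles can overlap: Kif3a and Kif3b, counted as cargo motors, drive transport in the cilium.

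The study sequenced polyadenylated RNA from spermatocytes, the germ cells in meiosis, and from round spermatids, the haploid cells that follow. Both were sorted by FACS after Hoechst staining from the testes of adult C57BL/6 mice, either from control mice or from mice whose Larp7 gene was conditionally knocked out. The Larp7 protein binds RNA, belongs to the 7SK complex and also acts in U6 snRNA modification. The driver of the deletion is not given in the sources used here. There were 8 libraries, 2 for each genotype in each stage, described as biological replicates with no mention of separate animals, so p-values measure only the spread between these libraries. In the tables the sample groups of a stage are numbered 1 and 2 and carry no genotype. Every difference within a stage is thus given as first minus second sample group and has no genotype direction.

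The spermatocyte libraries had 51786242 to 102000320 reads summed over events and the round spermatid libraries 49904607 to 93265932, where a read can enter several events. The stage labels were checked against marker genes. Of the spermatocyte markers, 6 of 8 tested had more reads in spermatocytes (5 higher and 2 lower under median-ratio scaling), and 6 of 6 round spermatid and 3 of 3 elongating spermatid markers had more in round spermatids. Of all genes tested, 50.3% were called higher in spermatocytes and 28.6% in round spermatids (37.7% and 38.6% under median-ratio scaling). Within spermatocytes, 6 of 8 tested spermatogonial markers were higher in the first sample group, with summed reads of 493 and 185 CPM (reads scaled to a common library total) against 69.3 and 66.4, and Zbtb16 and Kit, which did not pass the test, pointed the same way. Of the Sertoli cell markers, 3 of 4 were higher there too (205 and 135 against 40.9 and 69.2 CPM). Over all genes tested, 4.14% were called higher in that group. Markers of spermatocytes themselves also differed between these groups: Sycp1, Sycp3 and Hormad1 were higher in the first, and under median-ratio scaling Spo11, Ccna1 and Mns1 were lower. No marker of any list was called on reads between the round spermatid groups. In bulk libraries fewer cells of a type and less RNA per cell cannot be told apart.

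The spermatocyte tables held 202 splicing events in the 31 kinesin genes: 165 cassette exons, 21 pairs of mutually exclusive exons, 10 alternative 3′ splice sites, 3 alternative 5′ splice sites and 3 retained introns. The round spermatid tables held 158 in 28 genes. With a mean of at least 10 reads per library, 192 events in 30 genes and 149 events in 26 genes could be tested. Kif1a in spermatocytes, and Kif7 and Kif21a in round spermatids, had too few reads. Most of the rows described exons that were almost always included. In spermatocytes 111 of 157 tested kinesin cassette exons (70.7%) were included at 95% or more in all 4 libraries, against 66.4% of all tested cassette exons, and in round spermatids 83 of 119 (69.7%) against 64.1%. An inclusion level here is the percentage of transcripts holding the alternative part, from reads corrected for the length of each form.

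In every library, 3 kinesin exons in spermatocytes and 4 in round spermatids lay between 20% and 80%, or 1.91% and 3.36% of those tested against 3.82% and 4.51% of all cassette exons. Among them, 2 exons of Kif23 did so in both stages. Kif23 is a kinesin-6 motor of the centralspindlin complex, which bundles midzone microtubules for cytokinesis. Its 82-nt exon at chr9:61919612-61919693 (mm10) was included at 51.8%, 54.6%, 53.5% and 43.7% in spermatocytes and at 54.1%, 53.4%, 60.5% and 61.3% in round spermatids. Its 42-nt exon at chr9:61933229-61933270 was included at 48.8%, 43.4%, 40.4% and 44.2% in spermatocytes and at 39.9%, 32.8%, 33.3% and 37.7% in round spermatids. For the 82-nt exon the levels of the 2 stages overlapped, and for the 42-nt exon all round spermatid libraries lay lower. Neither difference between stages passed the test (limma adjusted p = 0.376 for the 82-nt and 0.235 for the 42-nt exon). The length of 60 of the 107 different kinesin cassette exons tested in round spermatids (56.1%) was a multiple of 3, which keeps the reading frame, against 40.1% of all tested cassette exons. In spermatocytes the shares were 41.4% and 38.6%. These shares are descriptions of the exons and carry no test.

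Kinesin reads were compared between stages first, using for each gene its most covered event present in both stages. Reads are given as CPM over the sum of such events, and differences as log2(CPM + 1), spermatocytes minus round spermatids, averaged over both sample groups. Of the 26 kinesin genes with a shared event, 24 could be tested. In all, 22 of the 24 (91.7%) differed between stages at an adjusted p below 0.05, the call used throughout, against 78.9% of all genes tested. Of these 22, 11 were higher in spermatocytes (50.3% of all genes tested were) and 11 in round spermatids (28.6% of all genes). At an unadjusted p below 0.05 the count was also 22, against 79.9% of all genes. The median difference of all genes was 0.41, against -0.055 for the kinesins. Scaling by median ratios, which moves the median of all genes to 0.022, gave 10 kinesins higher in spermatocytes and 13 higher in round spermatids (37.7% and 38.6% of all genes). The direction was called alike under both scalings for 21 genes. Kif1c and Kif7, both called higher in spermatocytes, met the minimum of 10 reads per library only through that stage. With fewer reads there they would not have been tested. Of 18 genes with more than 1 shared event, 15 had the same sign by every event, and the exceptions were Kif2c, Kif3a and Kif9. The size also varied with the event, from -3.95 to -2.11 for Kif17, from 1.42 to 2.92 for Kif15 and from -0.95 to -0.31 for Kif21b. This look at the other events was added after the data were seen and carries no test. Samples of each stage come from both genotypes, and the values below are listed as first group, first group, second group, second group.

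Kif17, a homodimeric kinesin-2 motor, had the largest difference among the kinesins. A testis form of this motor is known as a partner of ACT, a coactivator of the CREM transcription factor in spermatids. Its reads were 43.3, 39.9, 28.9 and 53.6 CPM in spermatocytes and 471, 631, 749 and 674 CPM in round spermatids. No library of one stage came near the other, and the log2 difference was -3.91 ± 0.17 (SE; adjusted p = 1.35e-10), or 15.0-fold higher in round spermatids. Among cargo motors Kif5c (-1.06 ± 0.25), Kif1b (-0.77 ± 0.17) and Kif16b (-0.68 ± 0.15) were also higher in round spermatids. Kif5c is a conventional kinesin heavy chain, Kif1b a kinesin-3 motor for mitochondria and vesicles, and Kif16b a kinesin-3 motor for endosomes. For Kif5c the stages overlapped, at 5.26, 2.64, 2.89 and 3.75 CPM against 4.13, 7.84, 12.3 and 12.02 CPM, and the call was lost in the first sample groups alone (adjusted p = 0.291). Kif1b and Kif16b did not overlap, with 19.3 to 25.1 against 31.9 to 44.2 CPM and 22.3 to 28.0 against 36.8 to 49.6 CPM.

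The other cargo motors were higher in spermatocytes or not called. Kif13b, a kinesin-3 vesicle motor, had 8.69, 7.62, 8.67 and 7.10 CPM in spermatocytes and 4.24, 2.81, 3.37 and 3.62 CPM in round spermatids, a log2 difference of 1.01 ± 0.21 (adjusted p = 0.000450). Kif1c, another kinesin-3 vesicle motor, reached 1.09 ± 0.38 (adjusted p = 0.0176), but 1 spermatocyte library carried most of its reads. The values were 8.44, 1.04, 0.798 and 1.78 CPM against 0.334, 0.527, 0.385 and 0.684 CPM. That call was lost when the second library of the second spermatocyte group or the first of the second round spermatid group was left out. Without the first library of the first spermatocyte group, which carried those reads, Kif1c fell below the minimum of reads and could not be tested. Its mean was 28 reads per library in spermatocytes and 5.75 in round spermatids, so it entered the test only through spermatocytes. Kif3a and Kif3b form the heterodimeric kinesin-2 that drives intraflagellar transport toward the tip of the cilium. Kif3b was the most read kinesin on the CPM scale, at 1069, 1109, 1098 and 1259 CPM in spermatocytes and 1377, 1141, 1213 and 1196 CPM in round spermatids, and did not pass the test (-0.12 ± 0.11, adjusted p = 0.319). Kif3a was higher in spermatocytes by 0.36 ± 0.12 (adjusted p = 0.0130), less than the median of all genes. Under median-ratio scaling Kif3a was at -0.061, no longer called, and Kif3b at -0.55, called. Of the 7 shared events of Kif3a, 2 were higher in spermatocytes and 5 lower, from -0.13 to 0.44, so its direction depends on both choices.

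Of the 7 spindle and cytokinesis kinesins tested, 4 were higher in spermatocytes and 3 in round spermatids (50.3% and 28.6% of all genes were). Kif11 is the kinesin-5 motor that slides spindle poles apart. Its reads were 109, 92.0, 97.2 and 82.4 CPM in spermatocytes and 26.2, 15.3, 21.5 and 16.1 CPM in round spermatids, a log2 difference of 2.23 ± 0.18 (adjusted p = 4.91e-08) and 4.71-fold. Kif20b, a kinesin-6 motor of the midzone, had 54.6, 53.3, 46.9 and 46.1 CPM against 14.8, 12.5, 9.43 and 11.6 CPM (1.98 ± 0.16). The size for Kif20b depended on the event, since a 102-nt exon at chr19:34972397-34972498 differed by 0.38 only. Kif15, a kinesin-12 that supports the bipolar spindle beside Kif11, had 74.6, 80.2, 67.3 and 63.0 CPM against 16.7, 24.8, 28.3 and 24.2 CPM (1.58 ± 0.16). The stages did not overlap for any of the 3 genes. Kif22, a chromosome-arm kinesin, was higher in spermatocytes by 0.97 ± 0.19, with 15.3 to 20.4 against 6.64 to 12.9 CPM. Its only shared event is a retained intron of 126 nt, so reads of the intron enter this count. That intron was kept in 34.1% to 46.9% of spermatocyte transcripts, against 4.98% to 9.05% in round spermatids. More Kif22 message and more retention cannot be told apart by this event, and the part of the intron reads was not tested. In the first sample groups alone Kif22 was not called (adjusted p = 0.0738).

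The other 3 spindle kinesins were higher in round spermatids by their most covered events. Kif18b, a kinesin-8 of astral microtubule ends, had 25.8, 24.8, 14.4 and 25.6 CPM against 48.5, 54.2, 22.2 and 36.7 CPM, so the stages overlapped (-0.77 ± 0.20, adjusted p = 0.00312). In the second sample groups alone its call was lost (adjusted p = 0.0996). Kif23 had 45.2 to 50.5 CPM against 61.6 to 82.6 CPM with no overlap (-0.58 ± 0.13). Kif2c, a kinesin-13 that depolymerises microtubules at centromeres, had 72.8, 76.8, 75.8 and 86.9 CPM against 74.5, 112, 173 and 126 CPM. One round spermatid library thus lay within the spermatocyte range, the difference was -0.57 ± 0.16 (adjusted p = 0.00395), and in the first sample groups alone it was not called (adjusted p = 0.294). For Kif2c the direction depended on the event: 5 of 6 shared events pointed this way, but the 95-nt exon, the farthest upstream of them, pointed the other way by 1.51, with a mean of 965 reads in spermatocytes against 352 in round spermatids. Kif20a, the kinesin-6 that brings the passenger complex to the midzone, had 201, 201, 174 and 197 CPM in spermatocytes and no row in the round spermatid tables. A row needs reads of both forms of an event, so its absence is not a measured level of 0. Kif14, also of the midbody, had 6.77 to 12.8 CPM in spermatocytes and no row in round spermatids. Kif18a, which dampens chromosome movements at kinetochores, had 2 events in spermatocytes and 1 in round spermatids, none of them shared. Within their own stages it stood at 27.6 to 35.8 CPM in spermatocytes and 29.1 to 33.9 CPM in round spermatids.

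Among the kinesins of cilia, the axoneme and microtubule ends, 4 of 8 were higher in spermatocytes and 3 in round spermatids. The shares of all genes were 50.3% and 28.6%. Kif27, a kinesin-4 of motile cilia, had 261, 264, 252 and 300 CPM in spermatocytes and 823, 780, 1038 and 843 CPM in round spermatids, a difference of -1.68 ± 0.11 (adjusted p = 7.19e-09). Kif7, its paralogue in ciliary Hedgehog signalling, went the other way at far lower levels, with 0.592 to 2.81 against 0.195 to 0.557 CPM (0.78 ± 0.24). Kif7 entered the test only through spermatocytes, with a mean of 16.25 reads per library there and 4.25 in round spermatids. Its spermatocyte libraries had 2.81, 1.66, 0.897 and 0.592 CPM, in the order of the summed spermatogonial markers of the same libraries (278, 114, 44.7 and 40.5 CPM), and the part of these markers in the result was not tested. Without either library of the first spermatocyte group Kif7 fell below the minimum of reads and could not be tested. Kif21b, which halts at microtubule plus ends, had 9.18, 8.85, 8.08 and 5.72 CPM against 11.8, 26.3, 13.9 and 15.2 CPM (-0.95 ± 0.23). Kif2a, a depolymerising kinesin-13, had 339 to 396 against 403 to 505 CPM (-0.29 ± 0.11, adjusted p = 0.0229). That small difference lost its call within either sample group alone and in 3 of the 8 fits that left out a library.

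Kif19a, a kinesin-8 that sets the length of motile cilia, had 26.2, 24.4, 25.1 and 21.6 CPM in spermatocytes against 5.24, 4.39, 5.20 and 5.96 CPM in round spermatids (2.03 ± 0.18, adjusted p = 1.18e-07). Kif24, a kinesin-13 that restrains the growth of primary cilia, had 59.95, 47.7, 52.5 and 55.5 CPM against 22.6, 18.2, 18.2 and 20.4 CPM (1.40 ± 0.15). Kif6, a kinesin-9 of motile cilia, had 14.2, 19.4, 22.7 and 25.5 CPM against 6.47, 5.56, 8.37 and 7.33 CPM (1.42 ± 0.18). None of these 3 genes had stages that overlapped. Kif9, the other kinesin-9 and a motor of the sperm flagellum, was not called, with 255, 296, 315 and 365 CPM against 340, 295, 292 and 290 CPM and a difference of 0.0085 ± 0.11 (adjusted p = 0.947). Under median-ratio scaling Kif9 was at -0.42 and called, so its direction depends on the scaling. It also depends on the event, from -0.38 to 0.99 over 9 shared events. Kif1bp, the kinesin-binding protein, had 36.2, 39.3, 27.3 and 28.7 CPM in spermatocytes and 110, 132, 117 and 139 CPM in round spermatids (-1.90 ± 0.13, adjusted p = 1.19e-08). Kif1a, a kinesin-3 known from axons, and Kif21a, the paralogue of Kif21b, reached at most 2.41 and 0.734 CPM over their shared events and were not tested between stages.

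**Figure D1:**
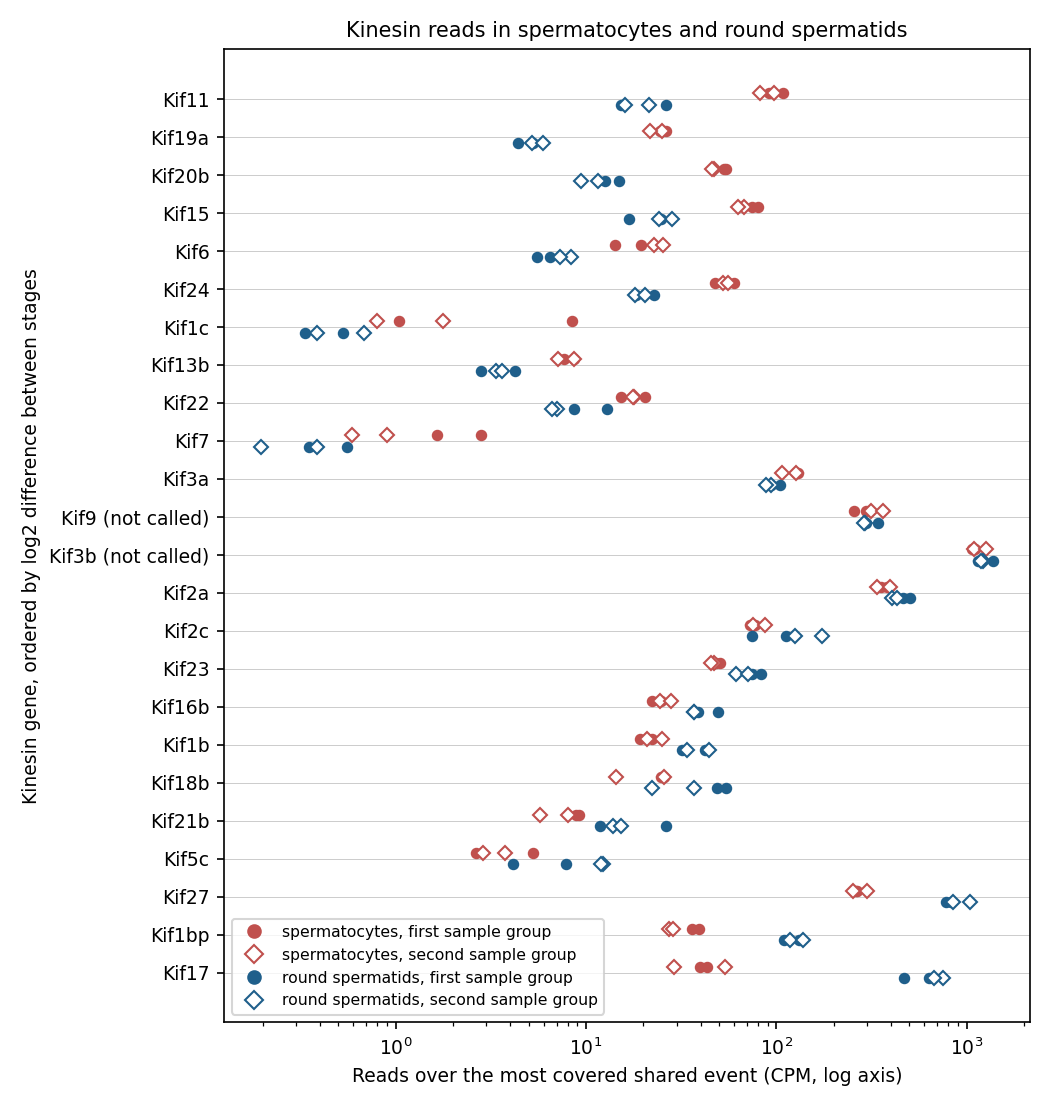
Reads over the most covered shared event (CPM, log axis) of the 24 tested kinesin genes, 1 point per library. Red marks spermatocytes and blue round spermatids, with filled circles for the first and open diamonds for the second sample group. Genes are ordered by their log2 difference, from Kif11 (2.23) at the top to Kif17 (-3.91) at the bottom, and all but Kif9 and Kif3b were called.

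Between genes, levels were compared as CPM per kilobase of the form, as mean ± SD over the 4 libraries of a stage. In spermatocytes Kif9 led with 1111 ± 172, followed by Kif2a (850 ± 61.0), Kif3b (574 ± 46.4), Kif20a (560 ± 37.7) and Kif3a (528 ± 50.9). The last 3 lay within their spreads of each other. Kif11 (293 ± 32.0) and Kif2c (292 ± 26.0) came next and did not differ beyond their spread. In round spermatids Kif9 (1161 ± 141) and Kif2a (1117 ± 120) again led and overlapped, and Kif17 rose from 56.6 ± 13.8 per kilobase in spermatocytes to 917 ± 163, with libraries that overlapped those of Kif2a (698 to 1085 against 991 to 1271). Kif27 (689 ± 88.6), Kif3b (668 ± 62.2) and Kif2c (536 ± 176) followed within their spreads. Of the conventional kinesin heavy chains, Kif5b, Kif5a and Kif5c had 56.5 ± 13.3, 11.3 ± 3.59 and 11.2 ± 3.62 in spermatocytes. In round spermatids Kif5b and Kif5c had 3.27 ± 1.28 and 29.7 ± 12.5. Kif5b had no event shared by the stages, so its values come from different events and do not compare the stages.

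The promoters of 4 genes that differed between stages are shown because each carries a motif of a known regulator of dividing cells or of spermatids. The cell cycle genes homology region (CHR), searched as TTTGAA on both strands (TTCAAA on the other), is the site through which cell cycle genes are held down outside division. The cAMP response element (CRE), searched as TGACGTCA, which reads alike on both strands, is the site bound by CREM, a master regulator of spermatid genes. The motifs did not overlap each other in the windows shown. The windows hold 250 bases before and 50 after the RefSeq start site in GRCm38.p6, read 5′ to 3′ on the gene's strand, with motif matches in capitals. Kif17 lies at chr4:138262001-138262300 on the plus strand, with its CRE at position -86 from the start site. Kif11 (chr19:37376132-37376431, plus strand) has a CHR at -19 on the opposite strand, and Kif20b (chr19:34922108-34922407, plus strand) a CHR at +8 and at +14. Kif2c (chr4:117178723-117179022, minus strand) has a CHR at -103 on the opposite strand. The RefSeq gene of Kif2c reaches farther upstream, to 117182624, so this window belongs to an internal start (117178772) and not to the first one. For Kif20b the window's start site is 34922358, and the RefSeq gene begins at 34922335.
Kif17: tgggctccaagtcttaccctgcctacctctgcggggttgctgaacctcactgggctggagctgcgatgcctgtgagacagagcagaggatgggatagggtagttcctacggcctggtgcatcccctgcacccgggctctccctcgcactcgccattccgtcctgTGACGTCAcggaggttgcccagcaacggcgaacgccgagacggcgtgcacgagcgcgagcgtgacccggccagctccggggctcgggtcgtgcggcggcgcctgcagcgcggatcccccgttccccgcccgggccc
Kif11: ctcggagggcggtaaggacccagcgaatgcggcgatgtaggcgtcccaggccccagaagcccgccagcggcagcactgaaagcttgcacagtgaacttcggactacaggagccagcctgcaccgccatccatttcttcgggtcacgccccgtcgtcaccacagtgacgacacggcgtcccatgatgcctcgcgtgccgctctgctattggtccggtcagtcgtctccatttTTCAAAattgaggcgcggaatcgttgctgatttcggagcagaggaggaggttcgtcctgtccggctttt
Kif20b: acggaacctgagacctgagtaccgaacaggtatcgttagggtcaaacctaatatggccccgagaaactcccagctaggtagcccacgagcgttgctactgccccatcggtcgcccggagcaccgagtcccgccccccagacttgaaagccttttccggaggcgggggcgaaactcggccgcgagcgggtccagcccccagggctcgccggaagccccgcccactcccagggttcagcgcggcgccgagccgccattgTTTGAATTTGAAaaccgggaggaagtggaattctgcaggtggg
Kif2c: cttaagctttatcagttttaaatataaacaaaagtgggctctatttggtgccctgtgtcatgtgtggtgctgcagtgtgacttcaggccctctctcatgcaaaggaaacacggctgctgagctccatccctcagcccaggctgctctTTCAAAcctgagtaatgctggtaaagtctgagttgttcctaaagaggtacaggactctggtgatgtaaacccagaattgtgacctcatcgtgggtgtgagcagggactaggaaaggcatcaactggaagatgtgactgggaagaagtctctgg

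CHR letters were in 10 of the 29 kinesin windows (34.5%, in 10 of 25 genes with a window) against 17.9% of all 32851 windows of this length. The 10 genes were Kif11, Kif14, Kif15, Kif18b, Kif1a, Kif20b, Kif22, Kif23, Kif27 and Kif2c. Of these, Kif11, Kif15, Kif20b and, by its retained intron event only, Kif22 had more reads in spermatocytes. Kif18b, Kif23, Kif27 and, by most of its events, Kif2c had more in round spermatids. CRE letters were in 3 kinesin windows (10.3%), those of Kif17, Kif18a and Kif5c, against 1.79% of all windows. Both of these with a stage test, Kif17 and Kif5c, had more reads in round spermatids. For Kif5c the stages overlapped, and it was not called in the first sample groups alone. Over all genes tested, 50.3% were called higher in spermatocytes and 28.6% in round spermatids (37.7% and 38.6% under median-ratio scaling). Whether either motif goes with a direction was not tested. A match describes the letters only, and no binding was measured.

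Inclusion levels were then compared between stages over the 104 kinesin events in 24 genes that were in both stages' tables and could be tested. Of these, 21 in 13 genes (20.2%) were called, against 12.5% of all shared events tested, 10 with a higher level in spermatocytes and 11 with a lower one. The shares of all events were 5.96% and 6.5%. A difference of at least 10 percentage points was called for 11 events in 7 genes (10.6%, against 4.68% of all shared events). Libraries of the stages did not overlap for 13 of the 21 (61.9%), against 66.5% of all called shared events. On simulated data this fit made more false calls than its nominal rate, and 5 of the 21 had an adjusted p between 0.0320 and 0.0484. Log2 odds differences below are spermatocytes minus round spermatids, from the limma fit to all events.

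The largest difference was in Kif2c. A 188-nt cassette exon at chr4:117178401-117178588 (minus strand) was included at 2.94%, 3.80%, 4.75% and 6.04% in spermatocytes and at 48.0%, 54.7%, 72.2% and 64.9% in round spermatids. The stages were far apart, with 55.6 percentage points between their means and a log2 odds difference of -5.08 ± 0.28 (adjusted p = 4.57e-68). The reads were ample: inclusion was backed by 30, 81, 66 and 98 reads in spermatocytes and 332, 1082, 1165 and 887 in round spermatids, and skipping by 438, 907, 585 and 674 against 159, 396, 198 and 212. This row takes as its upstream neighbour a 95-nt exon at chr4:117180572-117180666. The round spermatid tables held another row for the 188-nt exon, with an upstream neighbour whose downstream edge on the gene's strand is at position 117178709. By that row the exon was included at 97.4% to 99.4% on 387, 1252, 1338 and 1048 inclusion reads. The internal RefSeq start at 117178772, whose window is printed above, lies upstream of that edge of the neighbour and downstream of the 95-nt exon. The neighbour's other edge is not given here, so the start may lie inside or outside it. The 95-nt exon farther upstream had 673, 1336, 857 and 992 inclusion reads in spermatocytes and 243, 533, 309 and 320 in round spermatids. Reads within the 188-nt exon count as inclusion whatever lies upstream of them, so in these tables inclusion of the exon and a different start of the transcript cannot be told apart.

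Kif24 had the next largest difference. Its 145-nt exon at chr4:41429267-41429411 (minus strand) was included at 53.6%, 55.3%, 62.7% and 63.9% in spermatocytes and at 23.9%, 19.7%, 8.44% and 23.0% in round spermatids. The stages did not overlap, at 40.2 points and 2.58 ± 0.44 on the log2 odds scale (adjusted p = 1.84e-07), with a mean of 134 and 35.8 reads per library. A 63-nt exon of Kif24 at chr4:41462375-41462437 was called in the other direction (-14.3 points), but on 6.75 reads per round spermatid library and with overlapping levels. Kif22 kept a short intron of 126 nt, at chr7:127033036-127033161, in 39.3%, 39.5%, 46.9% and 34.1% of spermatocyte transcripts and in 9.05%, 6.62%, 6.25% and 4.98% in round spermatids. Its stages were well apart (33.2 points, 3.18 ± 0.41, adjusted p = 9.32e-13).

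Kif15 had 3 called events of at least 10 points. An alternative 3′ splice site adding 84 nt, at chr9:122979386-122979469, was used at 6.11%, 6.36%, 7.502% and 10.6% in spermatocytes and at 40.8%, 50.02%, 38.0% and 33.8% in round spermatids. The difference was -33.0 points and -3.10 ± 0.37 on the log2 odds scale (adjusted p = 9.21e-15), on a mean of 235 and 40 reads per library. Exons of 474 nt (chr9:123017245-123017718, 87.8% against 98.8% on average) and 178 nt (chr9:122987846-122988023, 95.5% against 84.7%) differed in opposite directions, by -11.0 and 10.8 points. Both had stages that did not overlap. The 178-nt exon was the firmer of the pair (adjusted p = 1.52e-06 against 0.0484).

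Kif9 had 2 called events, both near the 5′ end of the gene (RefSeq start 110476738). A 5′ splice site that adds 31 nt, at chr9:110477084-110477114, was used at 57.4%, 64.8%, 50.4% and 63.7% in spermatocytes and at 40.1%, 35.6%, 29.5% and 35.2% in round spermatids. A 243-nt exon downstream of it, at chr9:110477999-110478241, was included at 19.8%, 24.8%, 35.9% and 27.1% against 5.68%, 6.95%, 8.75% and 7.72%. Neither event had overlapping stages, and both were higher in spermatocytes, by 24.0 points (1.48 ± 0.20, adjusted p = 1.98e-11) and 19.6 points (2.21 ± 0.25, adjusted p = 4.38e-17). The difference in Kif9 reads, given above, was not called under the main scaling and was called under median-ratio scaling.

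Kif21b and Kif27 complete the 7 genes. The 180-nt exon of Kif21b at chr1:136173472-136173651 was included at 26.2%, 34.2%, 15.2% and 25.5% in spermatocytes and at 49.0%, 46.5%, 38.1% and 42.7% in round spermatids. All 4 round spermatid libraries lay higher, by 18.7 points between the means (-1.21 ± 0.31, adjusted p = 0.00156). The call was lost within the first (adjusted p = 0.136) and the second sample groups alone (0.0673) and without the first library of the second spermatocyte group (0.114). The 201-nt exon of Kif27 at chr13:58345629-58345829 was included at 90.8%, 79.3%, 75.4% and 82.4% in spermatocytes and at 91.0%, 92.4%, 93.3% and 92.6% in round spermatids. The stages just failed to meet, since the first spermatocyte library was close to the round spermatid level, and the difference was -10.4 points (-1.57 ± 0.23, adjusted p = 7.28e-10). Leaving out the second library of the first spermatocyte group took that p to 0.0510.

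**Figure D2:**
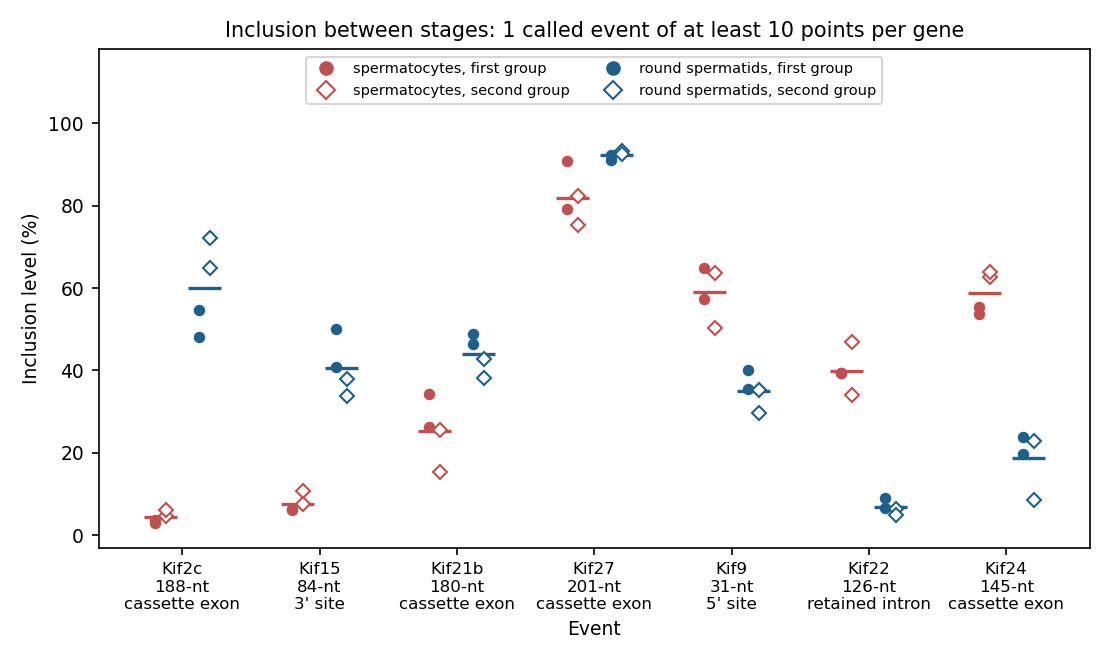
Inclusion level (%) of the called event of largest difference in each of the 7 kinesin genes with at least 10 points between stages. Points are libraries, red for spermatocytes and blue for round spermatids, filled circles for the first and open diamonds for the second sample group, and bars are stage means. Kif2c, Kif15, Kif21b and Kif27 lie lower in spermatocytes and Kif9, Kif22 and Kif24 higher, with no overlap of the stages in any of the 7.

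The other 10 called events differed by less than 10 points, from 0.427 to 9.28. The clearest was a 383-nt exon of Kif2a at chr13:106996747-106997129, included at 2.47%, 3.38%, 3.999% and 2.10% in spermatocytes and at 0.138%, 0.0328%, 0% and 0.182% in round spermatids (4.65 ± 0.58, adjusted p = 1.31e-13). It was rare in both stages, with no overlap. The remaining 9 were in Kif1bp, Kif17, Kif18b, Kif19a, Kif24, Kif27, Kif2c and Kif3a. The Kif3a event is a 9-nt microexon at chr11:53590717-53590725, at a mean of 92.3% in spermatocytes and 96.2% in round spermatids (-0.84 ± 0.29, adjusted p = 0.0320), with overlapping levels.

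The same Kif3a microexon was the 1 kinesin event called between the sample groups of spermatocytes. Its level was 85.1% and 90.1% in the libraries of the first group, against 97.3% and 96.8% for the second. The groups did not overlap, and the log2 odds difference was -2.08 ± 0.40 (adjusted p = 0.000213, and 0.0138 by a quasi-binomial test). Skipping was backed by 66, 101, 19 and 22 reads in that order, beside 400, 976, 730 and 703 inclusion reads. Another 2 rows pair the exon with other downstream neighbours on a mean of 31.3 and 19.3 reads per library, and neither was called (adjusted p = 0.819 and 0.578). In the authors' deposited table its FDR was 1.64e-11. In round spermatids the exon stood at 93.4% and 96.4% against 96.9% and 98.2%, again lower in the first group without overlap, at -0.91 ± 0.44 (adjusted p = 0.641). Whether the stages differ in this was not tested. The exon adds 9 nt, or 3 codons, to the message of a subunit of the ciliary motor.

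One called event of 192 tested (0.521%) is a share near the background of 0.537% over all events. The Kif3a call was lost with a trend on total reads (adjusted p = 0.219), without count weights (0.116), without the minimum of reads (0.446) and in 3 of the 4 fits that left out a library (0.0672 with library 1 of the first group left out, and 0.723 and 0.728 with library 1 or 2 of the second). The first library, where inclusion was lowest, also had the highest summed spermatogonial markers (493 CPM against 185, 69.3 and 66.4), and their part in the result was not tested. At an unadjusted p below 0.05 there were 11 kinesin events (5.73%, against 8.59% of all).

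Apart from calls, 2 of the 189 kinesin events with at least 20 reads per library in spermatocytes had groups that did not overlap and lay at least 10 points apart, a share below the 3.79% of all such events. Kif17 has an alternative acceptor site that adds 3 nt, at chr4:138289238-138289240. The longer form made up 69.7% and 63.2% in the first group against 50.2% and 42.8%, on 47, 63, 34 and 29 reads of it. The difference was 1.12 ± 0.50 on the log2 odds scale and was not called (adjusted p = 0.514, and 0.0385 in the authors' deposited table). In round spermatids, where Kif17 had far more reads (473, 998, 691 and 557 of the longer form), the levels were 56.0% and 56.3% against 50.2% and 53.3%. They pointed the same way with a smaller gap (adjusted p = 0.655). A second row of this site in round spermatids, with another upstream exon and fewer reads, pointed the other way, at 92.2% and 93.9% against 100% (adjusted p = 0.641). In spermatocytes that row also pointed the other way, at 74.6% and 90.7% against 100%, on a mean of 4.5 reads per library, too few to test.

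The other was a 217-nt exon of Kif5c at chr2:49757339-49757555. Inclusion was 78.2% and 87.0% in the first group against 100% and 100%, but the skipped form had 6 and 2 reads against 0 and 0. It was not called (-2.97 ± 2.02, adjusted p = 0.575, and 0.00710 in the authors' deposited table). By the authors' deposited FDR, 6 kinesin events of spermatocytes were below 0.05, against 4.96% of all events. Besides the 3 events above they were a 249-nt exon of Kif1b, a 134-nt exon of Kif19a and a pair of mutually exclusive exons of Kif9.

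In round spermatids no kinesin event of 149 was called between sample groups by limma or by the quasi-binomial test, where 0.131% and 0.254% of all events were. An unadjusted p below 0.05 was found for 12 (8.05%, against 5.88% of all events), and an FDR below 0.05 in the authors' deposited table for 2 (2.59% of all). The 1 event of 143 with at least 20 reads that lay at least 10 points apart without overlap (3.13% of all such events did) was the 188-nt exon of Kif2c, the event that also differed most between stages. Inclusion was 48.0% and 54.7% in the first group against 72.2% and 64.9%, on the reads given above. The groups lay 17.2 points apart, at -0.96 ± 0.27 on the log2 odds scale (adjusted p = 0.136, and 0.0603 by the quasi-binomial test), and the FDR in the authors' deposited table was 5.60e-05. In spermatocytes, where the exon was rare, it stood at 2.94% and 3.80% against 4.75% and 6.04%, again lower in the first group (-0.65 ± 0.31, adjusted p = 0.548). The other event with an FDR below 0.05 in the authors' deposited table was a 72-nt exon of Kif1b, at 97.5% and 98.3% against 95.8% and 93.1%.

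**Figure D3:**
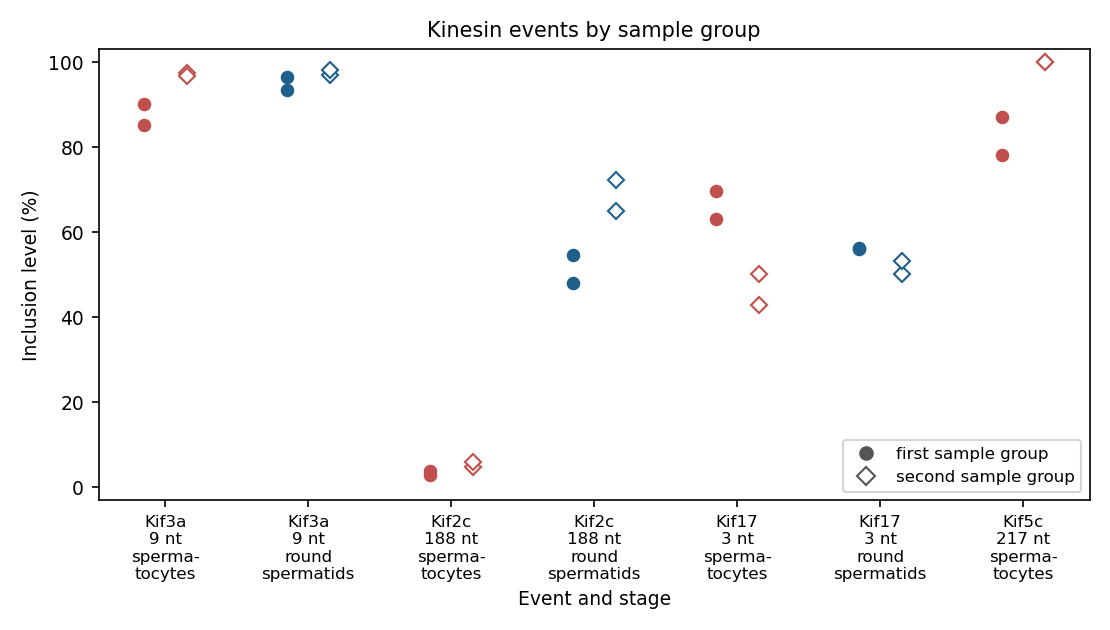
Inclusion level (%) of 4 kinesin events by sample group (Kif5c in spermatocytes only), with 1 point per library (red in spermatocytes, blue in round spermatids, filled circles for the first and open diamonds for the second group). The Kif3a microexon and the Kif2c exon are lower in the first group in both stages, the 3-nt Kif17 site is higher there, and only Kif3a in spermatocytes was called.

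No difference in kinesin reads between sample groups was called by limma: 0 of 30 genes in spermatocytes, where 4.79% of all genes were (4.14% higher and 0.649% lower in the first group), and 0 of 26 in round spermatids, where 0.0859% were (0.0751% higher and 0.0107% lower, or 0.0644% and 0.0107% under median-ratio scaling). At an unadjusted p below 0.05 there were 4 in spermatocytes (24.6% of all genes) and 2 in round spermatids (11.1%). In spermatocytes these were Kif21a, with 3.56 and 3.61 CPM in the first group against 0.905 and 1.38 in the second, and Kif1c, with 5.84 and 3.51 against 1.73 and 1.46. The groups did not overlap for either gene, at 1.11 ± 0.36 and 1.10 ± 0.36 (adjusted p = 0.0893 and 0.0928). Kif19a was lower in the first group, with 25.1 and 30.5 against 45.2 and 39.3 CPM (-0.59 ± 0.19, adjusted p = 0.0946), as was Kif9, with 206 and 242 against 260 and 300 CPM (-0.32 ± 0.14, adjusted p = 0.184). Under median-ratio scaling Kif19a was called (-0.74, adjusted p = 0.0346), as were 2.62% of all genes lower and 4.65% higher. The genes at the high end of these differences, Kif21a, Kif1c and Kif7 (0.79 ± 0.39), were among those with the fewest reads, and spermatogonial and Sertoli cell markers were higher in the same group. Their part in the result was not tested.

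Of the 5 kinesins with most reads in spermatocytes, none moved by more than Kif9. Kif3b had 864, 905, 906 and 1035 CPM (-0.13 ± 0.13), Kif2a 286, 312, 280 and 325 CPM (-0.012 ± 0.14), Kif27 211, 216, 208 and 246 CPM (-0.082 ± 0.14) and Kif20a 201, 201, 174 and 197 CPM (0.12 ± 0.13). In round spermatids Kif5c and Kif2c were lower in the first group without overlap. Kif5c had 3.67 and 6.81 against 10.7 and 10.5 CPM (-0.94 ± 0.32, adjusted p = 0.264). Kif2c had 66.3 and 97.7 against 150 and 109 CPM (-0.67 ± 0.25, adjusted p = 0.314). The most read differed by less: Kif3b had 1226, 991, 1056 and 1040 CPM (0.073 ± 0.20), Kif2a 450, 404, 351 and 376 CPM (0.23 ± 0.20), Kif9 343, 285, 294 and 257 CPM (0.19 ± 0.21) and Kif27 733, 678, 903 and 733 CPM (-0.21 ± 0.20). Kif17 had 419 and 548 against 652 and 586 CPM (-0.37 ± 0.21, adjusted p = 0.540). A p above the threshold does not show equal levels.

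**Figure D4:**
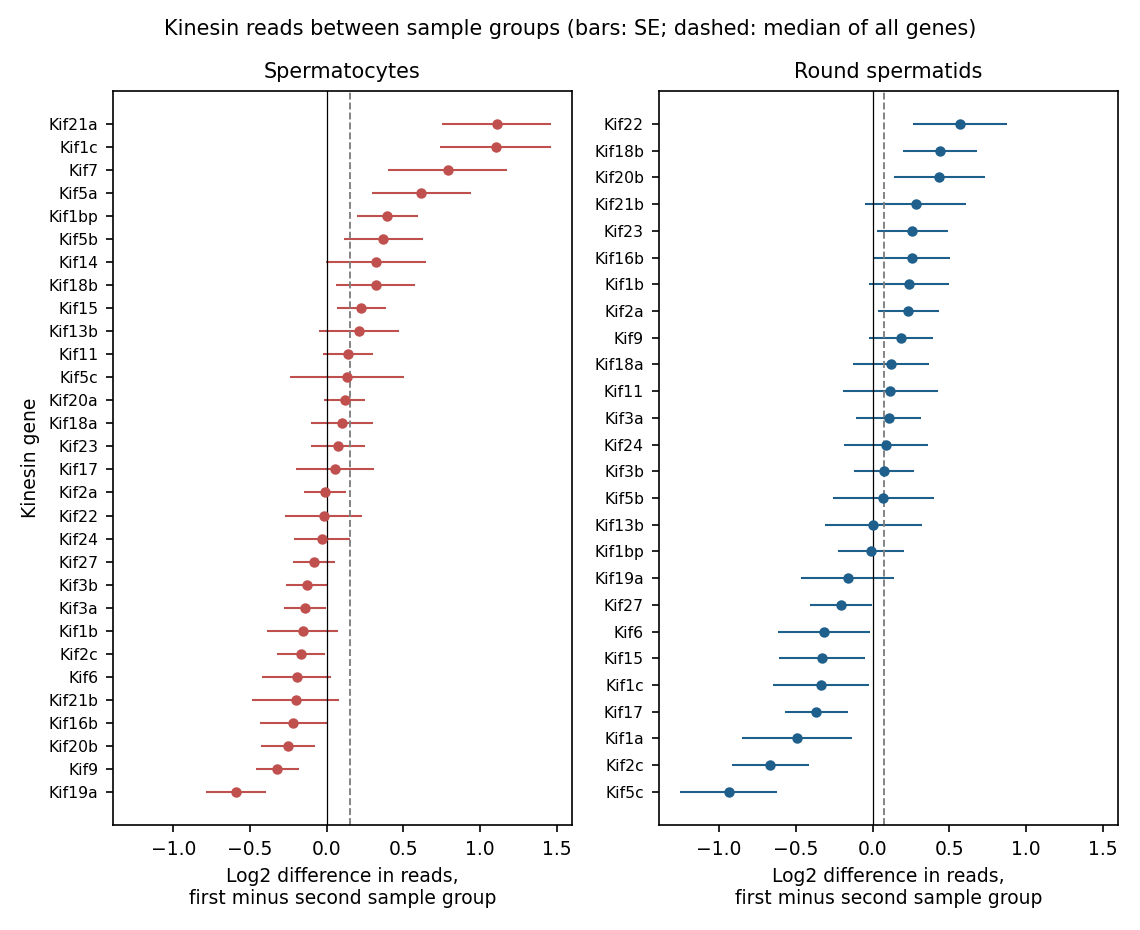
Log2 difference in reads between sample groups (first minus second) of each tested kinesin gene in spermatocytes (left, 30 genes) and round spermatids (right, 26 genes), with bars for the standard error and a dashed line at the median of all genes (0.15 and 0.074). None was called, and the ends of the range are Kif19a (-0.59) and Kif21a (1.11) in spermatocytes and Kif5c (-0.94) and Kif22 (0.57) in round spermatids.

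Proteins that work with kinesins were followed in 3 lists. Beside each list, 50.3% of all genes tested were called higher in spermatocytes and 28.6% in round spermatids. Under median-ratio scaling these shares were 37.7% and 38.6%. Of the kinesin partners and of the kinesins with other names, 16 genes were tested for reads between stages, and 6 were higher in spermatocytes and 5 in round spermatids. Kifap3, the subunit that completes the Kif3a and Kif3b motor, was higher in round spermatids (-1.63 ± 0.15), and so was Cenpe, the kinetochore kinesin (-0.51 ± 0.14). Kifc1, a minus-end directed motor of the spindle and the spermatid nucleus, was higher in spermatocytes (0.91 ± 0.20). Among partners of the midzone and cytokinesis, 10 of 11 were higher in spermatocytes and 1 lower. Prc1, which bundles midzone microtubules, was at 1.62 ± 0.13, Racgap1, the partner of Kif23 in centralspindlin, at 0.65 ± 0.13, and Plk1, a mitotic kinase, at -1.08 ± 0.17. Under median-ratio scaling 7 of the 10 were called higher, and Racgap1, Birc5 and Incenp were not. Of cytoplasmic dynein and dynactin, the motor of the opposite direction, 9 of 20 were higher in spermatocytes and 4 lower, but 4 and 8 under median-ratio scaling.

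Between sample groups 0 of 17 partners, 1 of 12 midzone genes and 1 of 21 dynein and dynactin genes were called on reads in spermatocytes, where 4.79% of all genes were, and 0 of 14, 11 and 20 in round spermatids. Aurkc, the meiotic Aurora kinase, was lower in the first group (63.2 and 79.5 against 113 and 140 CPM, -0.82 ± 0.17, adjusted p = 0.0293), and Dynlrb1, a dynein light chain, was higher (43.5 and 26.2 against 11.2 and 13.9 CPM, 1.37 ± 0.26, adjusted p = 0.0245). No inclusion event of any of the 3 lists was called between groups in either stage. Of all events, 0.537% were called in spermatocytes and 0.131% in round spermatids. Between stages, inclusion was called higher in spermatocytes for 2 and lower for 3 of 56 events of the partners. The counts were 3 and 2 of 61 for the midzone genes and 8 and 6 of 56 for dynein and dynactin. Over all shared events the shares were 5.96% higher and 6.5% lower. A 27-nt microexon of Kifc3 at chr8:95100647-95100673 was included at 15.5%, 15.5%, 11.2% and 11.1% in spermatocytes and at 28.7%, 38.4%, 35.3% and 34.7% in round spermatids. All round spermatid libraries were higher (-1.83 ± 0.26, adjusted p = 1.50e-10). Bicd2, an adaptor of dynein, kept a 1717-nt intron at chr13:49383254-49384970 at 68.5%, 71.4%, 78.5% and 72.0% in spermatocytes and at 33.5%, 34.3%, 30.8% and 32.4% in round spermatids (2.43 ± 0.24, adjusted p = 3.89e-22). Its stages were 39.9 points apart.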

How the data were processed

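The 8 polyadenylated RNA libraries were analysed from 10 deposited event tables, 1 per stage and event type. STAR and the mm10 build are named in the submitters' processing notes, without versions that the sources used here give. Per the file headers, a row gives the reads of the inclusion and the skipping form as counts, with the 2 libraries of a group joined in a cell, the form lengths, the inclusion fraction, and the authors' own p-value and FDR. The difference of inclusion levels is the authors' score. The inclusion form was 149 nt longer than the alternative part, except in mutually exclusive exons.

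Events entered with a mean of at least 10 reads per library and a read of each form. Weighted log2 odds of inclusion were fitted in limma 3.58.1 (R 4.3.3), with 0.5 reads added on average and an eBayes trend on reads of the rarer form. Adjustment (Benjamini-Hochberg) ran over every tested event. That trend comes from an earlier analysis of these data, where it was chosen after its counts were known. In these files the spread between libraries of a group followed the rarer form: at 4 to 64 such reads, the deviance per degree of freedom was 2.15, 2.42 and 2.23 in spermatocytes for events of up to 200, 200 to 1000 and over 1000 reads. The stage fit used 4 groups and the mean over sample groups. Reads were fitted as log2(CPM + 1) of the most covered event per gene with limma-trend. The methods were tested on simulated data, where the stage fit of inclusion made more false calls than its nominal rate.

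Members and lists were chosen with earlier results of these data known. Values per library were given for called events between groups, for events of at least 20 reads whose groups lay at least 10 points apart without overlap, for the largest called stage event of each gene if at least 10 points, for the 10 largest stage folds each way and for the 5 most read genes, and further values were chosen after they were seen. No library pair agreed within sampling noise (chi-square per degree of freedom 16.6 to 54.4). Promoters are from RefSeq (GRCm38.p6), where all 31 symbols matched and 25 genes had a window. A genotype-by-stage test was not run. Python 3.11.15 and matplotlib 3.10.9 drew the plots.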

Additional observations from a re-analysis of the deposited data

Results flagged for a closer look

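An alternative 3′ splice site of Kif15 (84 nt, chr9:122979386-122979469) had libraries of the sample groups apart in both stages and in opposite directions by the header numbering, with a first minus second difference of -2.83 points in spermatocytes and 9.48 points in round spermatids. The levels were 6.11% and 6.36% against 7.502% and 10.6% in spermatocytes, and 40.8% and 50.02% against 38.0% and 33.8% in round spermatids. A 144-nt exon of Kif27 at chr13:58337543-58337686 did the same on a smaller scale, with 0.844 points in spermatocytes and -0.846 points in round spermatids. The difference between stages was not tested for either event, neither was called within a stage, and the headers do not say whether the first group is the same genotype in both stages.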

How the results depend on the processing

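Of 192 kinesin events in spermatocytes, 1 was called between groups. This became 0 with a trend on total reads, 0 without count weights, 0 without a minimum of reads and 6 by the authors' deposited FDR, and ranged from 0 to 54 when a library was left out. Leaving out a library of the first group raised the calls over all events to 21.19% and 21.16%, and leaving out one of the second group gave none. In such fits the lone library is assumed to vary like the other group. In round spermatids 0 became 2 by the authors' deposited FDR, and ranged from 0 to 26 without a library. Between stages 21 calls became 10 without count weights and 10 in the second sample groups alone, and ranged from 13 to 20 without a library. The lowest came without the second library of the second spermatocyte group. For reads, 0 calls between groups became 1 in spermatocytes under median-ratio scaling, and ranged from 0 to 2 without a library in either stage, the 2 coming without the second library of the first group. Directions turned for genes near 0. In spermatocytes Kif20a was at -0.037 under median-ratio scaling, and without a library Kif27 ranged from -0.20 to 0.041 and Kif2a from -0.12 to 0.097. In round spermatids Kif3b ranged from -0.080 to 0.23 without a library. Between stages Kif9 was at -0.42 under median-ratio scaling, at -0.20 in the first sample groups alone and from -0.046 to 0.063 without a library. By other shared events, an alternative chosen after seeing the data and not tested, Kif2c reached 1.51, Kif3a -0.13 and Kif9 -0.38. For these changes the cause was not tested. No paired analysis was possible because the cells join 2 libraries with no replicate number.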
